A study of Bos taurus with 8 samples.

Results

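T cell and pan-leukocyte surface markers were followed in rumen epithelium across 2 diets, 4 calves and the 2 rows of 1 array slide. The 10 genes were CD48, PTPRC, CD3D, CD3E, CD247, CD2, CD5, CD4, CD8A and LCK, of 14962 gene names on the array. They were chosen from a first look at the same arrays, in which leukocyte genes differed between slide rows and varied together. Each was read through the brightest probe carrying its name, and each had 1 probe among 15008. Of the 10, 7 entered the tests, having spots that the scanner software placed well above background on 4 or more of the 8 arrays, while CD3E, CD5 and CD4 did not and are given as values.

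The animals were rumen-fistulated Holstein bulls, 7.4 ± 0.3 months old and 215.2 ± 20.4 kg in weight, with the kind of error not given. All ate a high-grain diet, for 14 days with corn flakes (control) and for 14 days with wood kraft pulp, a cellulose-rich fibre, in place of 50% of the corn flakes (WP), in a cross-over with no wash-out. The design names 5 bulls, and arrays of 4 of them, numbered 21, 23, 24 and 25, were analysed here, 1 per bull and diet, with 500 ng of total RNA labelled with Cy3. The question was how the epithelium differs between the diets, and the sources used here do not say which diet each bull ate first.

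T cells recognise antigen through a receptor that signals by way of the CD3 chains and the CD247 (zeta) chain. CD4 or CD8 holds the kinase LCK beside the receptor, and the phosphatase PTPRC (CD45), carried by nearly all leukocytes, keeps LCK ready to act. CD2 and CD48 belong to a family of adhesion molecules, and T cells live within and below the stratified epithelium of the rumen wall, where keratinocytes make up most of the tissue.

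Probe sequences are shown for CD48 and CD3D, the tested markers with the largest differences between slide rows, for CD3E, the partner of CD3D, and for LCK and CD247, which were bright and steady. The array design places the CD48 probe at chr3:9053255-9053314 on the plus strand of build UMD 3.1, CD3D at chr15:29458656-29458716 (minus), CD3E at chr15:29449163-29449222 (plus), LCK at chr2:122092899-122092958 (minus) and CD247 at chr3:1314897-1314956 (plus). Whether each lies in coding sequence or in a UTR was not analysed here. Each line gives 30 of the 60 probe bases as printed in the deposited files, 5′ to 3′, the first 30 for CD48 and CD3E and the last 30 for the others. Capitals mark AATAAA, the polyadenylation signal.
CD48: aatgcaagatttttccctcattggcaatcg
CD3D: gacaagaggtgtcaggcaatAATAAActcg
CD3E: ccatctctggaaacactgttgagctgacat
LCK: acacataaggagctcAATAAAtacctgttg
CD247: gagccttactcttttgcatAATAAAtacct

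AATAAA was searched in each whole probe as given, with its reverse complement TTTATT for the other strand. It was found in 3 of the 10 marker probes and in 1427 of all 15008 probes (9.51%). The signal left 4 bases to the probe's end in CD3D, 9 in LCK and 5 in CD247. TTTATT was in 0 marker probes and in 511 of all probes (3.40%). GC content was 35% to 45% in the marker probes, against a median of 45% over all probes. The CD4 probe differed in its placement, since its 60 bases span 103997798 to 104000177 on chromosome 5, a stretch of 2380 bases. The other 4 probes lie on chromosome 3 (CD2, 26584848 to 26584907), 11 (CD8A, 47995245 to 47995304), 16 (PTPRC, 79577541 to 79577600) and 29 (CD5, 38026344 to 38026403).

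All 8 arrays lay on 1 slide and were scanned once. Row 1 held the WP arrays of calves 21 and 23 and the control arrays of calves 24 and 25, and row 2 held the other array of each calf, so that each row had 4 calves and 2 arrays per diet. Whether slide row coincides with the feeding period was not tested, since the periods are not given. The WP array of calf 24 stood apart: the median signal of its negative control spots was 4.06, against 1.20 to 1.90 on the other 7 arrays, and its probes against the viral E1A sequence read 40.7, against 1.36 to 1.97. It had 11917 probes well above background, and the others 9314 to 10695. The tissue label was checked on keratinocyte genes: KRT5, a basal keratin, read between 6.18 and 7.20 on every array, and 19 of the 19 epithelial genes with a probe passed the background filter.

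Levels below are log2 of the processed signal minus the array's own 75th percentile, so that 0 is the signal that 75% of probes do not exceed. They are listed in a fixed order, on row 1 as WP 21, WP 23, control 24 and control 25, and on row 2 as control 21, control 23, WP 24 and WP 25. Probes differ in brightness for reasons of their own, and levels of different markers are not set against each other.

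CD48 is a membrane-anchored protein of nearly all leukocytes that binds CD244 in humans and mice and CD2 in mice. Its level was -2.58, -1.83, -2.26 and -2.18 on row 1 and 0.04, 1.63, 0.74 and 1.11 on row 2. Every array of row 2 was above every array of row 1, whatever the diet. The 4 calves gave row 2 minus row 1 differences of 2.62, 3.47, 3.002 and 3.29, with a mean of 3.096 ± 0.37 (SD, n = 4 calves), an 8.55-fold higher signal. The row means were -2.21 ± 0.31 and 0.88 ± 0.67 (SD, n = 4 arrays). The difference was as large without the WP array of calf 24, at 3.14.

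In signal units the same spot read 33.2, 56.6, 58.7 and 46.6 on row 1 and 332, 892, 476 and 506 on row 2. It was 1 spot per array, with no outlier flag and well above background on 8 of 8 arrays. The 13 tested probes printed nearest to it had a median row difference of 0.22, from -0.13 to 1.25, all below the 3.096 of CD48. Local background around the spot was 19.0 to 24.0 on the 8 arrays.

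PTPRC, the leukocyte phosphatase CD45, read -3.97, -3.69, -4.23 and -5.44 on row 1 and -2.52, -4.30, -2.63 and -4.37 on row 2. It was well above background on 7 arrays, all but the control array of calf 25. The rows overlapped: calf 23 was lower on row 2 by 0.61, while the other 3 calves were higher by 1.08 to 1.596. The mean row difference was 0.88 ± 1.01 (SD, n = 4), and 0.60 without the WP array of calf 24. It was 0.59 under quantile scaling and 0.10 with normexp, a background correction that shrinks differences of dim probes.

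**Figure D1:**
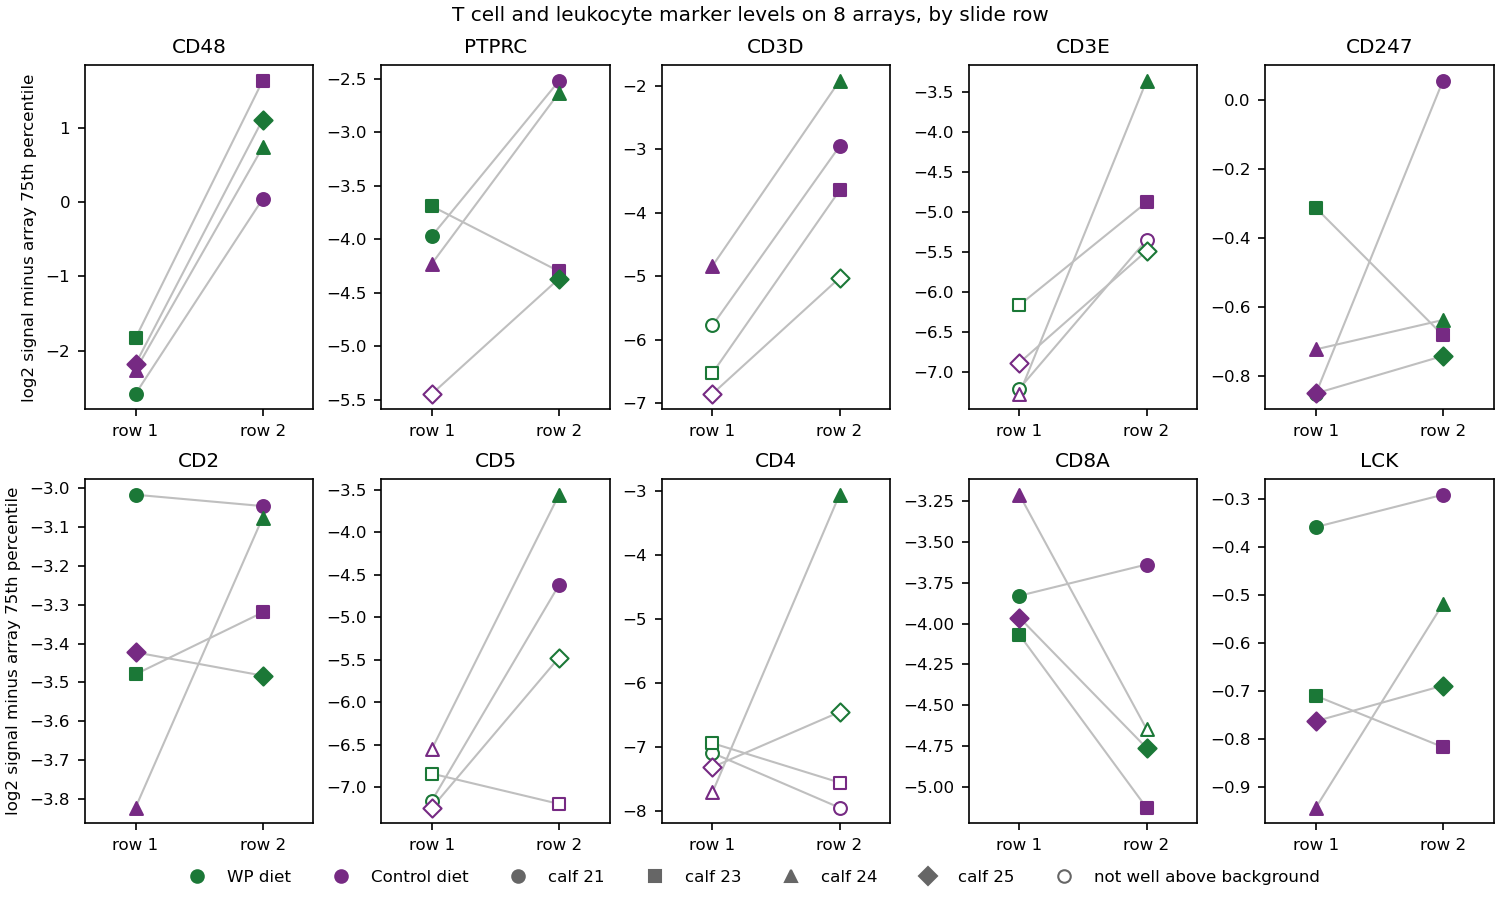
Each panel plots 1 marker, with the level (log2 signal minus the array's 75th percentile, axes differ by panel) on both slide rows, lines joining the arrays of a calf, colours for the diet and open symbols for spots not well above background. CD48 climbs from row 1 to row 2 in all 4 calves, LCK stays within 0.65, and CD4 has 1 filled symbol.

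Among the receptor chains, CD3D, which pairs with CD3E in the receptor complex, read -5.78, -6.53, -4.84 and -6.85 on row 1 and -2.95, -3.65, -1.92 and -5.03 on row 2. It was higher on row 2 in 4 of 4 calves, by 2.61 ± 0.53 (SD, n = 4). The share of all probes higher in 4 of 4 calves on row 2 was not analysed here. The rows overlapped, since the WP array of calf 25 lay below the control array of calf 24. CD3D was the member just inside the filter, well above background on 4 arrays: control 24, control 21, control 23 and WP 24. Only 1 of these is on row 1, so the size of its row difference rests largely on spots near background, and no fold is given. Its processed signals were 3.63, 2.18, 9.86 and 1.83 on row 1 and 41.7, 23.0, 75.4 and 7.18 on row 2. The row difference was 2.12 without the WP array of calf 24. With the background corrected by normexp, which adds an offset of 50 and so shrinks differences of dim probes, it was 0.28.

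CD3E, the signalling chain beside it, lay just outside the filter, with 2 arrays well above background (control 23 and WP 24). Its levels were -7.21, -6.16, -7.27 and -6.88 on row 1 and -5.35, -4.88, -3.36 and -5.49 on row 2. Every row 2 array was above every row 1 array. No array of row 1 was well above background and 2 of 4 were on row 2, so no fold is given. A floor for row 1, from the lowest signal among probes well above background on each array, was -5.11. The row 2 mean was -4.77, but control 21 and WP 25 lay below that floor and were not well above background. Without the WP array of calf 24 the row 2 mean was -5.24, also below the floor.

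CD247, the zeta chain that carries most of the receptor's signalling motifs, read -0.85, -0.31, -0.72 and -0.85 on row 1 and 0.05, -0.68, -0.64 and -0.74 on row 2. It was well above background on all 8 arrays. The control array of calf 21 was the highest, and the rows overlapped, with a difference of 0.18 ± 0.53 (SD, n = 4).

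LCK, the kinase that phosphorylates these chains, read -0.36, -0.71, -0.94 and -0.76 on row 1 and -0.29, -0.82, -0.52 and -0.69 on row 2. It was well above background on all 8 arrays. Of the 10 markers it varied least, with a range of 0.65 over the arrays and a row difference of 0.11 ± 0.22 (SD, n = 4).

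CD2, the adhesion receptor of T and NK cells, read -3.02, -3.48, -3.82 and -3.42 on row 1 and -3.05, -3.32, -3.08 and -3.48 on row 2. All 8 arrays were well above background and their range was 0.80. The row difference was 0.20 ± 0.37 (SD, n = 4), with 2 calves higher and 2 lower, and quantile scaling turned it to -0.18.

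CD8A, the coreceptor chain of cytotoxic T cells, went the other way from CD48. It read -3.83, -4.07, -3.21 and -3.96 on row 1 and -3.64, -5.13, -4.64 and -4.76 on row 2. It was lower on row 2 in 3 of 4 calves, calf 21 being the exception, with a mean of -0.77 ± 0.69 (SD, n = 4). That mean was -0.33 with normexp, -1.29 under quantile scaling and -0.55 without calf 24. The rows overlapped through the control array of calf 21. It was well above background on all arrays but the WP array of calf 24.

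CD5, a receptor that dampens T cell signalling, had levels of -7.16, -6.84, -6.55 and -7.24 on row 1 and -4.62, -7.20, -3.56 and -5.47 on row 2. It was well above background on 2 arrays, control 21 and WP 24, just outside the filter, and no fold is given. CD4, the coreceptor of helper T cells, read -7.09, -6.94, -7.71 and -7.31 on row 1 and -7.95, -7.55, -3.06 and -6.45 on row 2. The WP array of calf 24, whose controls stood apart, was the only one well above background. No row difference is given for either gene, since neither was well above background on any array of row 1. In bulk tissue, fewer cells of a type and less RNA per cell cannot be told apart.

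Over the whole array, 0 of 10236 tested probes passed the adjusted p threshold of 0.05 between slide rows (0%, limma with Benjamini-Hochberg adjustment), with 0.0965 as the lowest adjusted p. Before adjustment 1020 had a p under 0.05, of which 565 were higher and 455 lower on row 2. Probes whose rows did not overlap numbered 367 with row 2 higher (3.59%) and 344 with row 2 lower (3.36%). Of the 7 tested markers these were 1 (CD48) and 0. Without the WP array of calf 24 the shares were 6.20% and 6.69%, and CD48 was still the 1 marker among them. The median row difference was 0.20 over the 7 tested markers, 6 of them positive, and 0.03 over all probes, of which 54.4% were higher on row 2. These row values helped choose the markers and are a description only.

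The pairs of markers differed in how closely they varied together. Across the 8 arrays, which come from 4 calves and share a slide, Pearson's r was 0.70 between CD48 and CD3D (Spearman's rho 0.50), 0.33 between CD48 and PTPRC, 0.18 between CD48 and CD247 and 0.05 between CD48 and LCK. The steady pair CD2 and LCK had r = 0.89 (rho 0.74). Each calf had an array on either row, so with its mean removed r only restates the row differences of the 4 calves. After each calf's mean was removed, CD48 gave 0.97 with CD3D, 0.65 with PTPRC, 0.28 with CD247, 0.47 with LCK and -0.83 with CD8A. PTPRC went with CD3D at 0.75, with CD247 at 0.70 and with LCK at 0.65 before this step.

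CD8A and CD48 ran in opposite directions, with r = -0.80 (rho -0.81). Leaving out the WP array of calf 24 gave -0.78 for that pair, 0.67 for CD48 with CD3D, 0.90 for CD2 with LCK, 0.63 for PTPRC with CD3D and 0.86 for PTPRC with CD247. All are descriptions, since co-variation helped choose the genes.

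**Figure D2:**
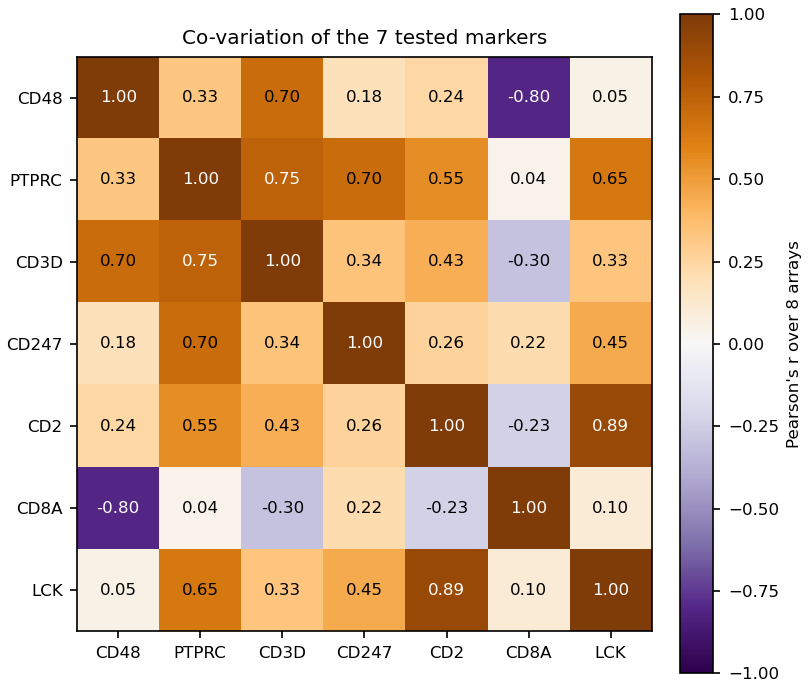
Squares give Pearson's r over 8 arrays for each pair of the 7 tested markers, from -1 (purple) to 1 (brown). CD48 with CD8A is the deepest purple at -0.80, and CD2 with LCK the highest at 0.89.

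The 12 genes outside the markers whose level followed the mean of the 7 tested markers most closely over the 8 arrays were MTERF3 (r = 0.98), NAPSA, STYK1 and RING1 (each 0.97), TMPRSS4, PLD4, RSF1, CYTH4, GRAMD1B, PSMG3 and CORO1A (each 0.96) and PIK3CD (0.95). They were picked as the highest over all tested probes on 8 arrays, so these r are a description only. TMPRSS4 was well above background on 5 arrays, and GRAMD1B and PIK3CD on 6 each. For the mean, each marker was first centred on its own mean but not scaled. CD48 and CD3D, with SDs of 1.72 and 1.74 over the arrays, thus weigh most, since the other 5 had SDs of 0.23 to 0.96. The mean of the 7 tested markers was -0.34, -0.38, -0.29 and -0.79 on row 1 and 0.80, 0.24, 0.75 and 0.00 on row 2. The rows did not overlap, and the choice of members helped to set this. The mean of the 5 tested markers other than CD48 and CD3D was 0.12, 0.07, -0.06 and -0.37 on row 1 and 0.63, -0.33, 0.22 and -0.29 on row 2, and these overlapped.

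The diets were compared within calf. No marker passed: adjusted p was between 0.743 and 0.993 for the 7 tested (limma with calf as a block, adjusted over all 10236 probes), where 0 probes passed (0%). The lowest adjusted p on the array was 0.658, and 715 probes had a p under 0.05 before adjustment, 536 higher and 179 lower on WP. Quantile scaling changed that split to 192 higher and 336 lower. WP was higher in 4 of 4 calves for 1221 probes (11.9%) and lower in 4 of 4 for 552 (5.39%), with 0 of the 7 tested markers in either class. The markers' median difference was 0.05, with 4 higher and 3 lower, and 0.09 over all probes, of which 64.4% were higher on WP. Quantile scaling moved these medians to -0.12 and -0.02. Without calf 24 the markers' median was -0.06, with 3 higher and 4 lower.

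CD48 gave WP minus control differences of -2.62, -3.47, 3.002 and 3.29 in calves 21, 23, 24 and 25. The sign followed the slide row of the WP array, with lower values on row 1 and higher values on row 2. The mean was 0.05 ± 3.59 (SD, n = 4), with a 95% interval of -3.43 to 3.54 and an adjusted p of 0.993 in limma. With slide row as a second block the interval was -0.46 to 0.56. The diets differed by 0.02 within row 1 and by 0.09 within row 2. Within a row the diets come from different calves, 2 per diet. These and the within-row differences below are thus unpaired, and diet and calf cannot be told apart in them.

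CD3D gave -2.82, -2.88, 2.92 and 1.83 in the same order, again split by the slide row of the WP array. The mean was -0.24 ± 3.05 (SD, n = 4), with limma's adjusted p at 0.951. With slide row as a block the interval was -0.84 to 0.36, and the within-row differences were -0.31 and -0.17. CD3E was split alike, with -1.86, -1.29, 3.91 and 1.40, most of these values coming from spots not well above background.

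PTPRC differed by -1.45, 0.61, 1.596 and 1.08, with a mean of 0.46 ± 1.33 (SD, n = 4) and an interval of -0.86 to 1.78. It differed by 1.01 within row 1 and by -0.09 within row 2. CD8A differed by -0.19, 1.06, -1.43 and -0.80, with a mean of -0.34 ± 1.06 (SD, n = 4) and an interval of -1.40 to 0.72. Its within-row differences were -0.36 and -0.32. For both genes the calves disagreed in sign.

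LCK, CD2 and CD247 had the narrowest intervals for diet in the fit with calf alone as a block. LCK differed by -0.07, 0.11, 0.42 and 0.07, with a mean of 0.13 ± 0.21 (SD, n = 4) and an interval of -0.20 to 0.47. CD2 gave 0.14 ± 0.41, with an interval of -0.34 to 0.62, and calf 24 alone contributed 0.75. CD247 gave -0.09 ± 0.56, with an interval of -0.69 to 0.52, and calf 21 contributed -0.91. With slide row as a block as well, the CD247 interval was -0.76 to 0.59, wider than those of CD48 and CD3D in that fit. Differences in level within these bounds cannot be told from 0 with 4 calves.

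**Figure D3:**
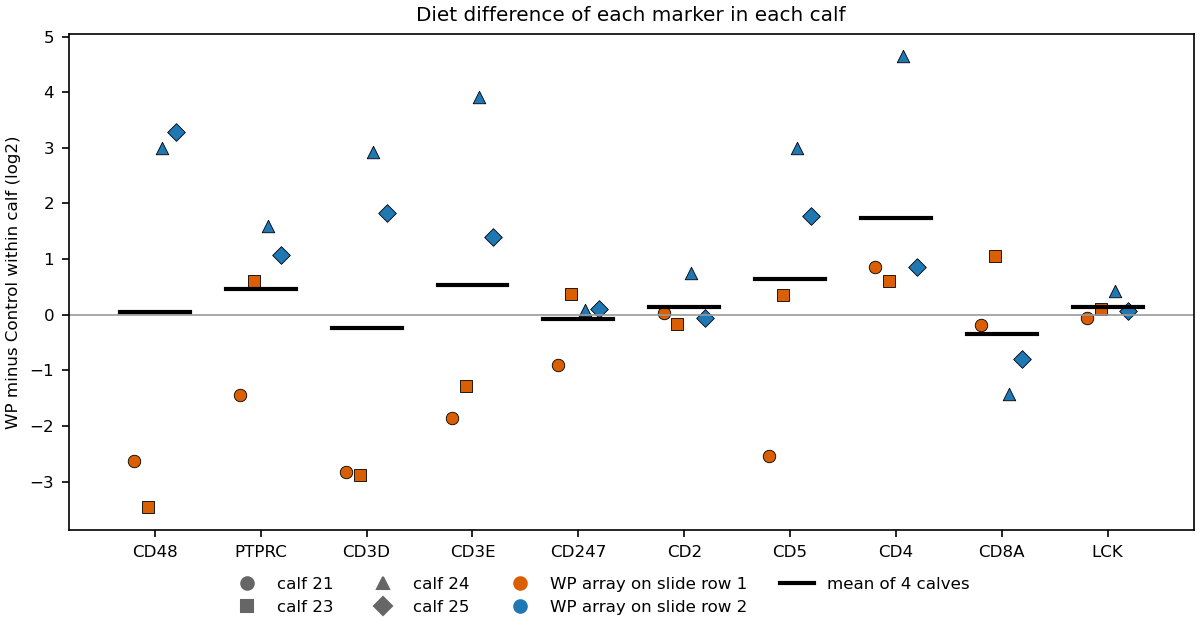
Points give the log2 difference of WP minus control in each calf (shapes), coloured by the slide row of the WP array, with a bar at the mean of 4 calves. For CD48, CD3D and CD3E the calves with WP on row 1 lie below 0 and those with WP on row 2 above 0, while LCK stays near 0.

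Other genes of the T cell receptor pathway were mostly dim. Of 20 listed signalling genes, all with a probe, 5 were tested, and ZAP70, LCP2, TRAT1 and THEMIS were among the 15 below the filter. None of the 5 passed for diet in either direction, and 3 had a higher mean on row 2 and 2 a lower one, with a median of 0.17 (0.0081 under normexp). Without the WP array of calf 24 they were 4 and 1. The exchange factor VAV1 differed between rows by -0.23 ± 0.48, the adaptor LAT by -0.13 ± 0.49 and the adaptor SLA2 by 0.73 ± 1.08 (SD, n = 4). CD3G, the remaining CD3 chain, is named because of its values. It read -2.74, -2.88, -1.73 and -3.15 on row 1 and -0.76, -0.82, -0.60 and -2.75 on row 2, well above background on all 8 arrays. It was higher on row 2 in 4 of 4 calves, by 1.39 ± 0.78 (SD, n = 4), with the rows overlapping. How many of all probes did so in 4 of 4 calves was not analysed here. The diet difference of CD3G was -0.63 ± 1.63.

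Of 25 T cell surface and cytokine receptor genes, 9 were tested and 0 passed for diet. On row 2, 8 were higher and 1 lower, but 6 and 3 under quantile scaling or normexp. The shared cytokine receptor chain IL2RG and the costimulator TNFRSF4 differed between rows by 0.04 and 0.37. Of 15 T cell transcription factors, 8 were tested, 0 passed for diet, and 4 were higher and 4 lower on row 2 (3 and 5 under quantile scaling, 2 and 6 under normexp). Of 24 cytotoxic and NK cell genes 4 were tested, and of 8 gamma delta T cell genes 3 were, BLK, WC1 and SOX13, with 0 passing for diet in both lists. In the family of CD48 and CD2 partners 4 of 11 were tested and 0 passed, the CD48 receptor CD244 was below the filter, and CD58, the ligand of CD2 in humans, differed between rows by 0.10 ± 0.26 (SD, n = 4).

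Further leukocyte genes leaned to row 2 as well. Of 30 pan-leukocyte genes 17 were tested, 15 higher and 2 lower on row 2 (13 and 4 under quantile scaling or normexp), with a median of 0.65 (0.12 under normexp). Without the WP array of calf 24 they were 13 and 4, with a median of 0.45. The integrin chain ITGB2 differed between rows by 0.01, and PTPRCAP, a partner of CD45, by 0.39 ± 0.29 (SD, n = 4). The rows did not overlap for CORO1A, CD52 and MYO1F, which differed by 1.41, 1.38 and 0.84 and are named because of that. Over all tested probes 3.59% were higher on row 2 with no overlap, and 3.36% lower. In the other lists beside the markers STAT4, CD68, AIF1 and TYROBP were likewise higher, and KRT5 lower.

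Markers of other cells are set beside CD48 here, and 0 of them passed between rows. All 12 tested genes for macrophages, monocytes and dendritic cells had a higher mean on row 2 (9 of 12 under quantile scaling, 8 of 12 under normexp, 11 of 12 without the WP array of calf 24), and their summed level, each as a multiple of the array's 75th percentile, was 4.49 to 5.10 on row 1 and 5.56 to 11.5 on row 2. All 10 tested MHC class II genes had a higher mean on row 2 under each scaling (9 of 10 without that array), with a median of 0.73 and summed levels of 6.87 to 14.4 and 11.1 to 24.5. Among them BOLA-DQB and BOLA-DQA5 were well above background on 4 arrays only. They read -1.88 to 0.20 in calves 21 and 25 and -7.66 to -4.42 in calves 23 and 24, so their row means rest partly on dim spots. Of 9 tested B and plasma cell genes 5 were higher and 4 lower (4 and 5 under quantile scaling, under normexp and without the WP array of calf 24), and the B cell genes MS4A1 and CD79A were below the filter. KRT5 was lower on row 2 by a log2 difference of -0.58 ± 0.05 (SD, n = 4), with no overlap, and 11 of 19 epithelial genes were lower (9 of 19 without the WP array of calf 24). Their part in the row difference of CD48 was not tested.

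The lists for other cells in the tissue were tested for diet alike, and 0 genes passed in each. Fibroblast genes had 13 of 14 and endothelial genes 12 of 13 with a positive WP minus control mean, at medians of 0.60 and 0.40, and without calf 24 at 0.47 and 0.57. The pan-leukocyte and macrophage lists had medians of 0.07 and 0.02, which turned to -0.24 and -0.13 without calf 24 and to -0.11 and -0.23 under quantile scaling. The 5 tested neutrophil, 2 mast cell and 6 smooth muscle genes had medians of 0.05, 0.36 and 0.42, and -0.33, 0.12 and 0.19 under quantile scaling. Without calf 24 that of the neutrophil genes was -0.29. CXCR1, CXCR2, MPO and ELANE were below the filter, so the neutrophil values rest on the list's other genes. Whether those mark neutrophils in this tissue was not tested.

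**Figure D4:**
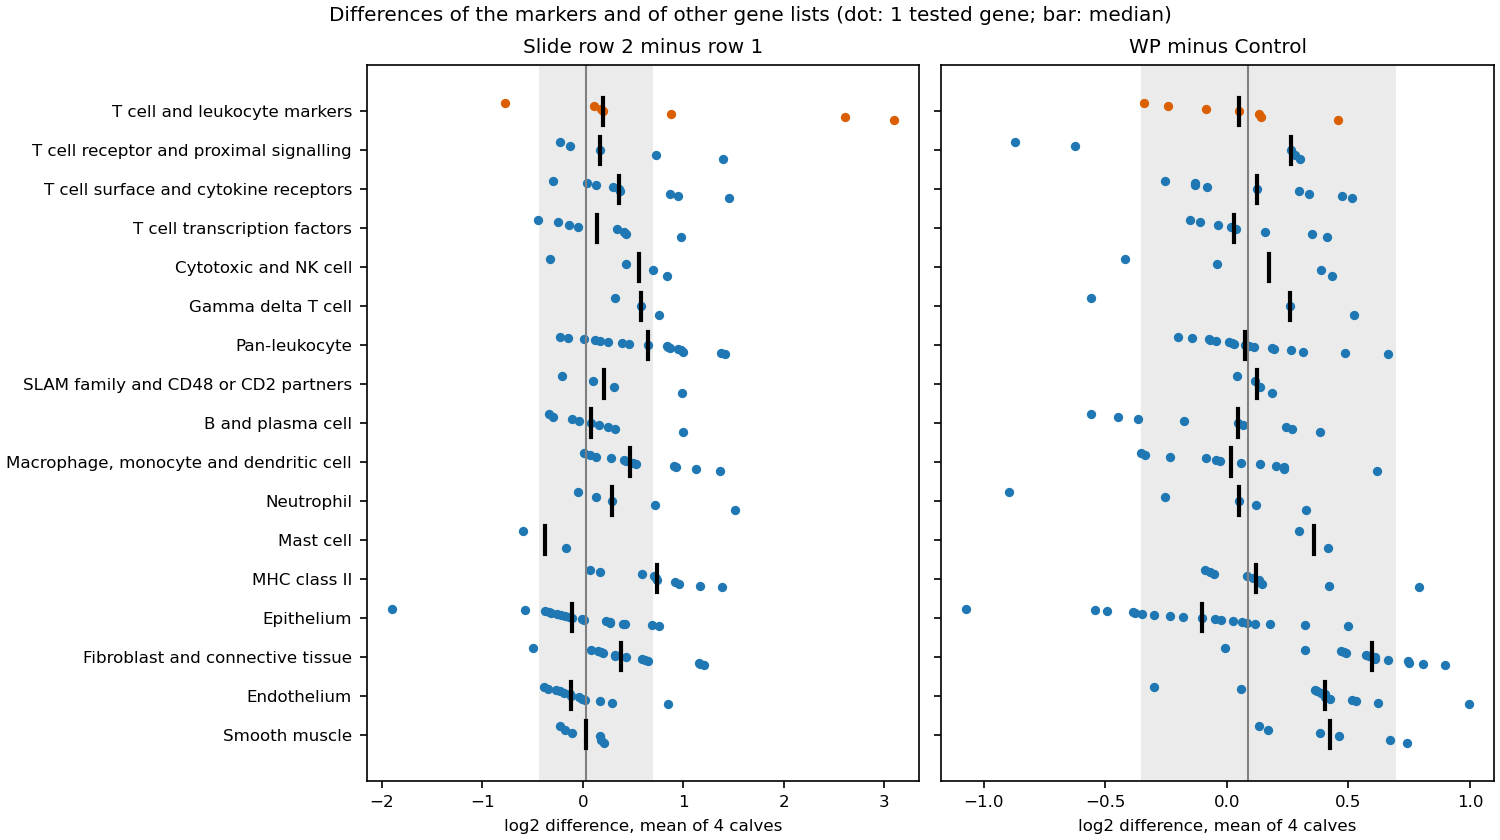
Dots give the log2 difference of each tested gene (mean of 4 calves), by list, between slide rows on the left and between diets on the right, with black bars at list medians, a line at the median of all 10236 probes and a grey band from the 5th to the 95th percentile. In the left panel CD48, CD3D and PTPRC lie right of the band and CD8A left of it, and in the right panel all 7 markers lie inside it.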

How the data were processed

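RNA from rumen epithelium was measured on 8 single-colour arrays of Agilent design 072598. The deposited scanner files hold intensity per spot, with a processed signal already corrected for background, and flags for background and saturation (0 saturated spots). Per the file headers the software was Agilent Feature Extraction, release 11.0.1.1, while the submitters' processing notes name 9.5. Log2 values are in a table the authors deposited, and these equalled log2 of the processed signal less 1 constant per array (slopes 0.99998 to 1.00, medians -3.07 to -2.26). Slide row was read from the array position in the header.

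From these, log2 processed signal minus each array's 75th percentile was computed, leaving out 97 spots flagged as outliers and the 536 control spots. The 10236 of 15008 probes that were well above background on 4 or more of the 8 arrays were tested in limma 3.58.1 (R 4.3.3, lmFit and eBayes, two-sided), adjusted by Benjamini-Hochberg with a threshold of 0.05. Calf was a block, since the series text states a cross-over and the labels number the calves; deviations of a calf's arrays correlated at 0.00897, 0.195, 0.0600 and 0.0475. The calves are separate animals, and the number of arrays limits the precision. On simulated data for the diet comparison (10194 probes, 10 runs), the share of changed probes recovered was 24.0% at 1.5-fold, 48.8% at 2-fold, 79.8% at 4-fold and 88.6% at 8-fold. The simulated data held no slide row difference, and their spread came from a fit with slide row as a term. In the real data the diet SE of CD48 was 1.37 with calf alone as a block and 0.18 with slide row added. The shares are therefore too high for probes that differ between rows.

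The members, the 16 other lists and the rules were chosen with earlier results of these data known. Genes to be named were the members, the 3 brightest of each list, and the 12 most alike; in the lists far from T cells they are given as summed or median values instead, and 1 gene that the rule takes is not reported here. Symbols came from RefSeq names of ARS-UCD2.0, used for names only (11194 probes matched by accession, 3085 by symbol, 38 by an older symbol, 691 kept the array's name). Alternatives were normexp, quantile scaling, the authors' table, the background filter, the blocks, single slide rows and each calf left out. Leaving out the WP array of calf 24, the marker mean without CD48 and CD3D, and diet as a block in the row comparison were chosen after seeing the data.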

Additional observations from a re-analysis of the deposited data

Results flagged for a closer look

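In the CD4 gene the WP array of calf 24 read -3.06, while the nearest other WP array, that of calf 25, read -6.45 and the lowest -7.09. Its gap to the nearest array was 0.842 of the range of the 4 WP arrays, above Dixon's 95% critical value for 4 values. The other 3 WP spots were not well above background, so the gap is set by readings at background and has no size of its own. It was the only array on which the CD4 spot was well above background, and the one with the raised negative control and E1A signals. Of 20 sets of 4 arrays tested (10 markers, 2 diets), 1 was marked in this way, and chance marks about 1 in 20.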

How the results depend on the processing

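For diet, 0 probes passed in all 13 alternatives, 0 of them with no replicate block, and the markers' median difference ran from -0.15 to 0.24 with each calf left out. Between slide rows 0 probes passed in the main setting and 0 whichever calf was left out. With normexp 6 passed (CD48, CPNE5, CYP2C90, IGFBP6, PDLIM4 and SELENOW), and with no replicate block 3 (CD48, PDLIM4 and SELENOW). Among probes well above background on all 8 arrays 1 passed (CD48). Row differences helped choose the markers, so the passing of CD48 is a description only. The markers' median row difference was 0.94 with no filter on dim probes, when all 10 count, and 0.22 to 0.37 with each calf left out. The row difference of CD48 was 2.21 with normexp and 2.97 to 3.25 in the other 10 alternatives. WP minus control changed sign, never past the threshold, as follows. With each calf left out, CD48 ran from -1.03 (without calf 25; -0.93 without calf 24) to 1.22, and CD3D from -1.29 to 0.64 (without calf 23; 0.62 without calf 21). CD3D gave 0.22 with normexp. CD2 gave -0.33 under quantile scaling, -0.096 within row 2, and -0.063 (without calf 24) to 0.24 with each calf left out. CD8A gave 0.070 with normexp and -0.81 to 0.023 (without calf 24) with each calf left out. Within row 2, where the diets come from different calves, LCK gave -0.050 and PTPRC -0.089. CD247 gave 0.20 within row 1 and -0.24 to 0.19 (without calf 21) with each calf left out. Before adjustment the probes higher and lower on WP at p under 0.05 numbered 1134 and 293 with normexp, 802 and 101 with no filter, 264 and 165 without calf 24 and 411 and 69 without calf 21, against 536 and 179. The cause of these shifts was not tested. Averaging all probes of a gene gave no separate value, since each marker has 1 probe. The 3 untested markers rest on spots near background on most arrays, which limits what their levels show.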
